A study of Mus musculus with 6 samples.

Results

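The genes around the scaffold protein syntenin were followed through cultured primary hepatocytes of WT and Alb/MDA-9 mice: syntenin itself (Sdcbp), its paralogue Sdcbp2, the 4 syndecans Sdc1, Sdc2, Sdc3 and Sdc4, and the direct partners Pdcd6ip, Arf6, Pld2 and Cd63. They were chosen by symbol, for what their proteins are known to do, and are 10 of the 55487 genes in the count tables. Each genotype had 3 RNA sequencing libraries from untreated hepatocytes of chow-fed mice on the B6CBAF1 background. Alb/MDA-9 mice were heterozygous for a transgene in which the albumin enhancer and core promoter, active in hepatocytes, drive human MDA-9/SDCBP, the human form of syntenin, with an HA tag at the C terminus; WT were littermates without it. The labels give neither sex nor age, and do not say whether the numbered libraries of a group came from separate animals or cultures, so p-values measure only the spread between these libraries, which may be technical.

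Syntenin carries a pair of PDZ domains, modules that grip the free C-terminal end of another protein. Its best known ligands are the syndecans, cell-surface proteoglycans whose heparan sulfate chains bind growth factors, chemokines and matrix, and whose short cytoplasmic tails end in the same stretch. Syntenin also binds ALIX, the product of Pdcd6ip, and through it links syndecans to the budding of vesicles into endosomes and their release as exosomes, a route in which the small GTPase ARF6 and its effector phospholipase D2 (Pld2) take part and in which the tetraspanin CD63, another PDZ ligand of syntenin, is cargo. In the liver syndecan-1 is a main heparan sulfate proteoglycan of hepatocytes, where it takes part in clearing lipoprotein remnants.

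The stretch that syntenin holds is written at the very end of each syndecan coding sequence. The last 15 codons before the stop codon are shown here because they are the feature that makes these 4 genes syntenin partners; the final 4 codons, which encode the PDZ-binding end, are in capitals. They were read 5′ to 3′ on the coding strand from GENCODE M21 transcripts on GRCm38, at chr12:8791760-8791804 (+) for Sdc1, chr15:33032493-33032537 (+) for Sdc2, chr4:130822762-130822806 (+) for Sdc3 and chr2:164426089-164426133 (-) for Sdc4.
Sdc1: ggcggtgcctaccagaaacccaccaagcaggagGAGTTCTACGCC
Sdc2: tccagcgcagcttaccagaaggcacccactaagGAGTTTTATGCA
Sdc3: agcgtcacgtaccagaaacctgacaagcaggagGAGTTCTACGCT
Sdc4: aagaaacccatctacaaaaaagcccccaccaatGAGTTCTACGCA
All 4 genes shared 9 of the 12 bases in capitals, against 13 of the 45 bases shown. Sdc1 and Sdc3 were the closest pair, with 36 of 45 bases identical, followed by Sdc2 and Sdc4 with 27. No stretch of 50 bases was shared between any of the 10 genes, so reads of that length could be told apart between members.

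Each library held 16403918 to 19046739 reads assigned to genes on their own strand. Values are CPM, counts brought to a common library size with TMM factors, which even out differences in library composition. All 10 members had enough reads to be tested, in 1 fit over 13296 genes with edgeR's quasi-likelihood test, and "rose" or "fell" means a Benjamini-Hochberg adjusted p under 0.05 in that fit. By the χ2 statistic per degree of freedom between the reads of 2 libraries, WT 1 differed from WT 2 and WT 3 by 14.5 and 14.0, against 3.37 between the latter. Alb/MDA-9 3 differed from the other libraries of its group by 24.2 and 17.0, against 7.99 between those. Members whose call ended, or began, without a library are given with that value.

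Of the 10 members 1 rose, Pld2, and 1 fell, Sdc3, where 14.4% of all tested genes were called, 7.35% as higher and 7.09% as lower. Sdcbp, Sdc1, Sdc2, Sdc4, Pdcd6ip, Arf6, Cd63 and Sdcbp2 did not pass the test. The libraries of the genotypes did not overlap for 5 of the 10 members, Sdc3, Pld2, Pdcd6ip, Arf6 and Cd63, against 33.6% of all tested genes. The median log2 change of the members was 0.084 and that of all tested genes -0.0015. The estimated change was above 0 for 9 members with TMM factors and for 4 with library totals alone, a scaling that moved the median of all genes by -0.10. Of all called genes 50.9% were higher in Alb/MDA-9 with TMM factors, 39.9% with upper-quartile factors and 24.5% with library totals.

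**Figure D1:**
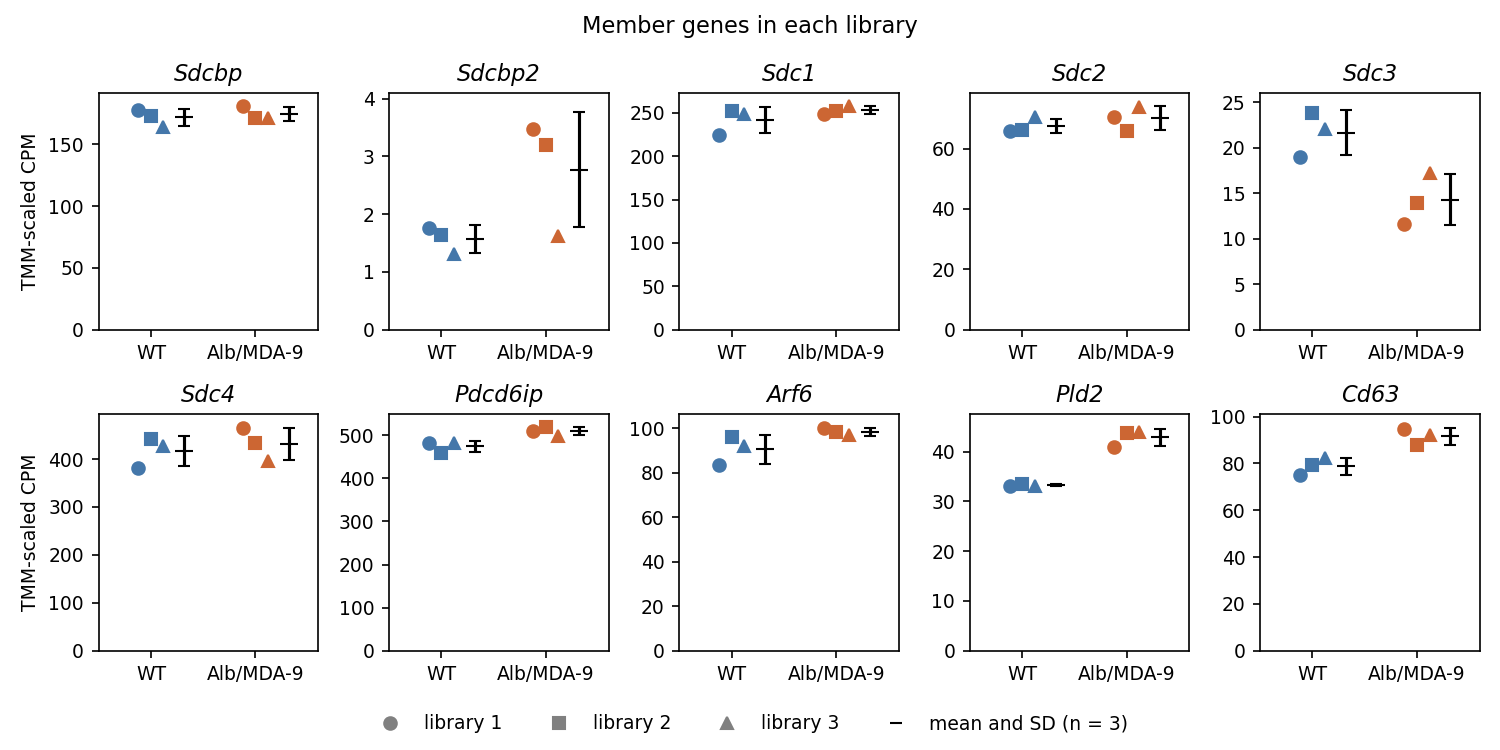
Level of each of the 10 member genes in each library, in TMM-scaled CPM on linear axes from 0, with WT in blue, Alb/MDA-9 in orange and the replicate number as the symbol; black bars are the mean and SD of 3 libraries. Sdc3 is lower and Pld2 higher in every Alb/MDA-9 library than in every WT library, and Sdcbp2 is high in Alb/MDA-9 1 and 2 but not in Alb/MDA-9 3.

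The endogenous mouse Sdcbp gene (ENSMUSG00000028249, chromosome 4, 6365650 to 6408423, + strand) had 178, 173 and 164 CPM in WT 1, 2 and 3 and 181, 171 and 171 CPM in Alb/MDA-9 1, 2 and 3. The groups overlapped, and the highest library exceeded the lowest 1.10-fold. The difference did not pass (log2 change 0.023, SE 0.068, edgeR adjusted p = 0.863), and the 95% interval of the fold change ran from 0.917 to 1.13. The transgene is human while reads were aligned to the mouse genome, and counts per gene do not tell whether any of its reads were assigned to Sdcbp; its level was not analysed here and the genotype labels are not checked by these values. Exons of Sdcbp overlap Nsmaf on the opposite strand, and reads on that strand made up 0.229% of the Sdcbp reads.

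Sdcbp2 (ENSMUSG00000027456, chromosome 2, 151572622 to 151590005, + strand) encodes syntenin-2, which shares the tandem PDZ layout. It had the fewest reads of the members, 35, 32 and 22 in WT and 63, 55 and 27 in Alb/MDA-9. On the CPM scale these were 1.77, 1.64 and 1.30 in WT and 3.48, 3.20 and 1.63 in Alb/MDA-9. Alb/MDA-9 1 and 2 were above every WT library, while Alb/MDA-9 3 lay among them. The 95% Poisson interval of its 27 reads in Alb/MDA-9 3, 17.8 to 39.3, did not reach the 48.4 reads at the lower bound of Alb/MDA-9 1. For Alb/MDA-9 2 the lower bound was 41.4 reads. Such intervals cover counting error only. They were not scaled to library size, which was 16756725 reads in Alb/MDA-9 3 and 19046739 in Alb/MDA-9 1. The estimated change was the largest among the members, 1.76-fold (95% interval 1.08 to 2.87), and it did not pass (log2 change 0.82, SE 0.33, edgeR adjusted p = 0.122). Without Alb/MDA-9 3 it passed (log2 change 1.08, edgeR adjusted p = 0.0161), as it did with voom and quality weights, which give less weight to discordant libraries (log2 change 0.90, limma adjusted p = 0.0408).

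Among the syndecans, Sdc4 (ENSMUSG00000017009, chromosome 2, 164424247 to 164443887, - strand), a syndecan of focal adhesions, had 382, 442 and 427 CPM in WT and 464, 434 and 397 CPM in Alb/MDA-9. Sdc1 (ENSMUSG00000020592, chromosome 12, 8771323 to 8793715, + strand) had 224, 252 and 248 CPM in WT and 249, 252 and 258 CPM in Alb/MDA-9. Sdc2 (ENSMUSG00000022261, chromosome 15, 32920723 to 33034935, + strand), known from mesenchymal cells and also made by hepatocytes, had 65.9, 66.2 and 70.3 CPM in WT and 70.4, 65.8 and 73.8 CPM in Alb/MDA-9. For each of these 3 genes the groups overlapped. Their 95% intervals of the fold change were 0.916 to 1.17 for Sdc4, 0.941 to 1.16 for Sdc1 and 0.930 to 1.16 for Sdc2, with edgeR adjusted p = 0.734, 0.586 and 0.681.

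Sdc3 (ENSMUSG00000025743, chromosome 4, 130792537 to 130826319, + strand), a syndecan best known from neurons and also made by macrophages and endothelium, had 18.98, 23.8 and 22.1 CPM in WT and 11.7, 13.98 and 17.2 CPM in Alb/MDA-9. Every Alb/MDA-9 library was below every WT library, with the narrowest gap between Alb/MDA-9 3 and WT 1. Sdc3 fell to 0.659 of the WT level (95% interval 0.530 to 0.820; log2 change -0.60, SE 0.14, edgeR adjusted p = 0.0155), an interval that did not overlap those of Sdc1, Sdc2 and Sdc4. By size this was the 1664th of 13296 changes. The call ended without Alb/MDA-9 2 (adjusted p = 0.0644), WT 2 (0.0840) or WT 3 (0.0523), with log2 changes of -0.59, -0.53 and -0.58 in the same edgeR test, and held without the libraries that stood apart, Alb/MDA-9 3 (log2 change -0.76, adjusted p = 0.00108) and WT 1 (log2 change -0.69, adjusted p = 0.0198). The annotated antisense genes Gm12970 and Gm26716 overlap its exons, yet 1 read lay on the opposite strand against 1952 on its own, and Gm26716, which shares 5.36% of the 50-base windows of Sdc3, had 0 reads in all 6 libraries.

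Some markers of other liver cells were also called in these libraries; the lists were picked with earlier results of the same libraries known. Of 11 Kupffer cell markers 8 fell, of 10 endothelial markers 4 fell, and of 11 markers for stellate cells and fibroblasts 5 fell. In each list 0 rose and the others did not pass. Of all tested genes 7.09% were called as lower and 7.35% as higher. Clec4f, a receptor of Kupffer cells, the liver macrophages, fell from 12.9 ± 1.03 to 8.54 ± 0.967 CPM (SD of 3 libraries), while the macrophage genes Cd68, at 271 ± 11.4 and 248 ± 97.5 CPM, and C1qa, at 27.6 ± 0.960 and 23.6 ± 5.06 CPM, did not pass. The endothelial adhesion gene Cdh5 fell from 52.9 ± 4.83 to 38.4 ± 3.79 CPM, while the scavenger receptor genes Stab2, at 48.2 ± 2.51 and 42.4 ± 3.03 CPM, and Stab1, at 54.5 ± 2.45 and 49.4 ± 3.52 CPM, did not pass. Lrat, which encodes a retinol enzyme of stellate cells, fell from 8.20 ± 0.501 to 5.61 ± 0.888 CPM and the matrix gene Dcn from 88.5 ± 0.925 to 52.9 ± 2.85 CPM, while Reln, at 149 ± 6.69 and 138 ± 34.4 CPM, did not pass. None of the markers in these 3 lists was at 0 in all libraries. The summed level of the endothelial list was 259 to 280 CPM in WT and 199 to 216 CPM in Alb/MDA-9. That of the stellate list was 305 to 323 CPM in WT and 206 to 268 CPM in Alb/MDA-9. Without Reln, its most abundant gene, the stellate sum was 162 to 166 CPM in WT and 99.4 to 108 CPM in Alb/MDA-9. The Kupffer sum was 411, 415 and 426 CPM in WT 1, 2 and 3. In Alb/MDA-9 1, 2 and 3 it was 395, 371 and 238 CPM. Without Cd68, the most abundant gene of the list, the sums were 149, 148 and 142 CPM in WT. They were 72.9, 86.8 and 101 CPM in Alb/MDA-9, in the same order of libraries. In a mixed culture fewer cells of a type and less RNA per cell cannot be told apart, and the part of these cells in the Sdc3 result was not tested. Of 6 tested cholangiocyte and mesothelial markers 3 rose and 2 fell. Spp1, which encodes osteopontin, rose from 0.967 ± 0.343 to 215 ± 56.6 CPM, the transcription factor gene Sox9 from 33.4 ± 4.15 to 57.9 ± 1.15 CPM and the keratin gene Krt19 from 13.5 ± 1.76 to 20.0 ± 2.79 CPM. Msln, which marks mesothelium, fell from 5.81 ± 1.23 to 0.614 ± 0.671 CPM, and the keratin gene Krt7 from 6.22 ± 2.04 to 1.91 ± 0.861 CPM. Cftr and Upk3b were at 0 in all libraries. Of 9 hepatocyte markers 1 rose and 1 fell. Tf, the transferrin gene, rose from 6449 ± 177 to 9481 ± 514 CPM, and Cps1 fell from 171 ± 5.88 to 88.4 ± 11.3 CPM. Alb, at 56538 ± 2237 and 63059 ± 7577 CPM, and the fibrinogen gene Fgb, at 5052 ± 377 and 6094 ± 290 CPM, did not pass.

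**Figure D2:**
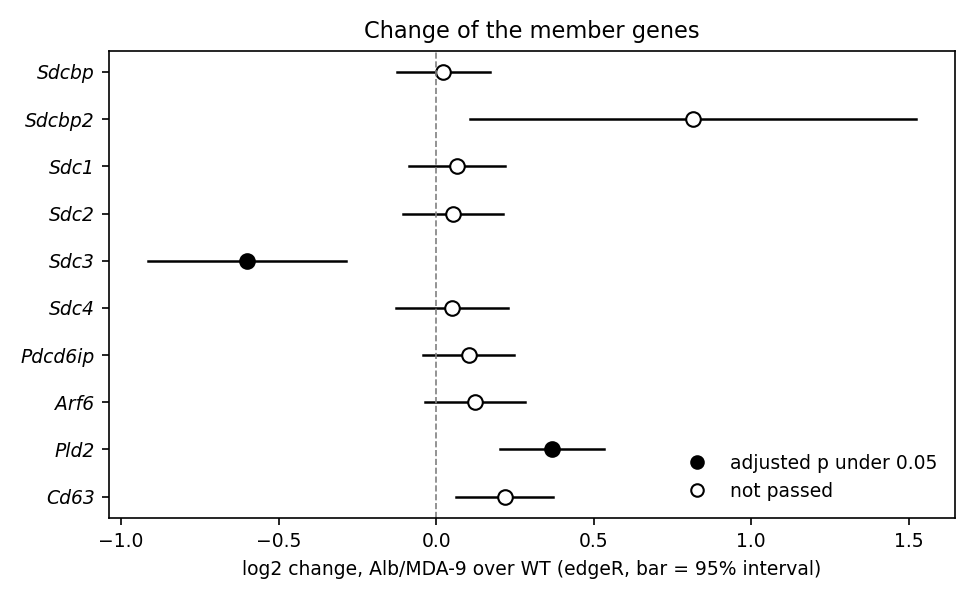
Log2 change of each member gene, Alb/MDA-9 over WT, from the edgeR fit over all genes; circles are estimates, bars 95% intervals and filled circles pass the adjusted p threshold of 0.05. Sdc3 at -0.60 and Pld2 at 0.37 are filled, and Sdcbp lies closest to 0.

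Phospholipase D2, which turns phosphatidylcholine into phosphatidic acid and acts beside ARF6 in syntenin-dependent vesicle formation, is encoded by Pld2 (ENSMUSG00000020828, chromosome 11, 70540064 to 70558110, + strand). It had 33.2, 33.5 and 33.2 CPM in WT and 41.0, 43.8 and 44.1 CPM in Alb/MDA-9. The WT libraries lay within 1 CPM of each other, and every Alb/MDA-9 library was above them. Among WT libraries the SD was 0.597% of the mean, below the counting error of 3.90% to 4.22% of each count. Pld2 rose 1.29-fold (95% interval 1.15 to 1.45; log2 change 0.37, SE 0.076, edgeR adjusted p = 0.00651), the 3241st change by size. The call held under all 14 alternatives run, at log2 changes of 0.26 to 0.40 and adjusted p of 0.00272 to 0.0430. The pseudogene Gm10418 overlaps Pld2 on the opposite strand and had 0 reads in all libraries.

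CD63, a tetraspanin of late endosomes and exosomes, is encoded by Cd63 (ENSMUSG00000025351, chromosome 10, 128900989 to 128912822, + strand), which had 74.98, 79.2 and 82.2 CPM in WT and 94.9, 87.9 and 92.0 CPM in Alb/MDA-9. The groups did not overlap, and the change of 1.16-fold (95% interval 1.045 to 1.29) did not pass (edgeR adjusted p = 0.0600; 0.0588 to 0.315 over the 14 alternatives). Of its 50-base windows 11.1% occur in other genes, among them the pseudogene Cd63-ps, which had 200 reads in WT and 167 in Alb/MDA-9, so part of its reads may be lost or counted elsewhere.

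The adaptor ALIX, which recruits the ESCRT-III membrane-cutting machinery, is encoded by Pdcd6ip (ENSMUSG00000032504, chromosome 9, 113651744 to 113708259, - strand). It had 482, 460 and 482 CPM in WT and 511, 519 and 499.6 CPM in Alb/MDA-9. The libraries did not overlap, but the difference of 1.07-fold (95% interval 0.972 to 1.19) did not pass (edgeR adjusted p = 0.339). Arf6 (ENSMUSG00000044147, chromosome 12, 69372150 to 69373783, + strand), the GTPase that activates phospholipase D and recycles syndecans to the plasma membrane, had 83.5, 95.9 and 92.1 CPM in WT and 100.3, 98.4 and 96.8 CPM in Alb/MDA-9. These libraries did not overlap either, and the difference of 1.09-fold (95% interval 0.975 to 1.22) did not pass (edgeR adjusted p = 0.304). The protein-coding gene Gm9887 overlaps Arf6 on the opposite strand, and 0.108% of the Arf6 reads lay on that strand.

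Levels of different genes were compared as CPM per kilobase of the union of annotated exons. In WT Sdc4 stood highest at 164 ± 12.2, followed by Pdcd6ip at 68.8 ± 1.81, Sdc1 at 63.4 ± 3.97 and Arf6 at 58.99 ± 4.15 CPM per kilobase (SD, n = 3). Sdcbp at 24.9 ± 1.01, Cd63 at 21.4 ± 0.984 and Sdc2 at 19.1 ± 0.695 came next, then Pld2 at 5.33 ± 0.0318, Sdc3 at 3.62 ± 0.411 and Sdcbp2 at 1.12 ± 0.172 CPM per kilobase. The SD of Pld2 here was also below its counting error per WT library. The order by group mean was identical in Alb/MDA-9. Over the 6 libraries the ranges overlapped between Pdcd6ip and Sdc1, Sdc1 and Arf6, Sdcbp and Cd63, Cd63 and Sdc2, and Sdc3 and Sdcbp2. These ranges pool both genotypes, so an overlap alone does not show that 2 neighbours changed places in a library. In Alb/MDA-9 1 Sdcbp2 stood above Sdc3, at 2.49 against 1.95 CPM per kilobase. Arf6 was narrowly above Sdc1 in Alb/MDA-9 1, and Cd63 narrowly above Sdcbp in Alb/MDA-9 3. Pdcd6ip stayed above Sdc1, and Cd63 above Sdc2, in every library. Syntenin stood 20.4 to 25.6 times above syntenin-2 per kilobase in the WT libraries and 10.6 to 21.4 times above it in the Alb/MDA-9 libraries, a ratio that depends on the length used.

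The length used mattered for this order and for the ratios between genes. Divided by the mean length of annotated coding transcripts, 5 of 10 members took another rank in WT, and Sdcbp moved from the fifth place to the third, at 117 ± 4.73 CPM per kilobase, beside Sdc1 at 119 ± 7.43 (SD, n = 3). Sdc4 stayed highest, and Sdc2, Pld2, Sdc3 and Sdcbp2 stayed lowest in the same order. The union of Sdcbp exons spans 6904 bases and its coding transcripts average 1469 bases. With coding transcript length syntenin stood 96.0 to 120.3 times above syntenin-2 in the WT libraries and 49.6 to 100.5 times above it in the Alb/MDA-9 libraries.

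**Figure D3:**
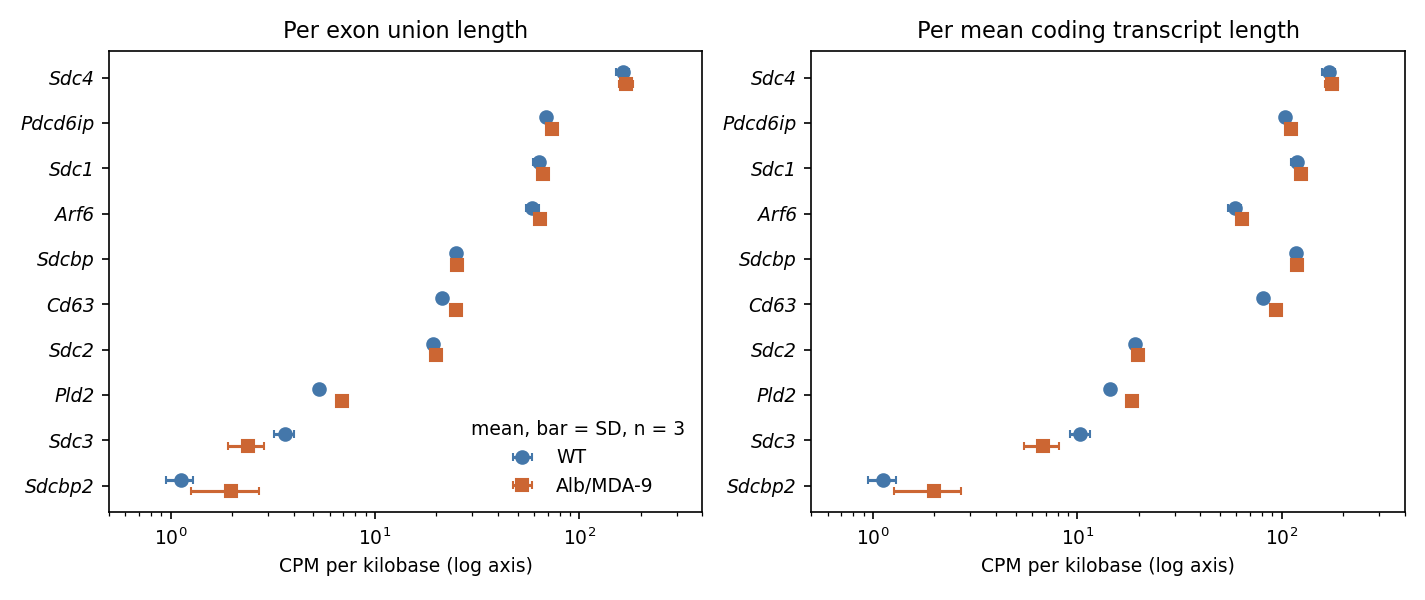
Mean level of each member in CPM per kilobase on a log axis, for exon union length (left) and mean coding transcript length (right), with genes in the left panel's WT order; points are means and bars the SD of 3 libraries. Sdc4 is highest and Sdcbp2 lowest in both panels, while Sdcbp and Cd63 move up with the shorter length.

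Of the summed syndecan level per kilobase of exon union, Sdc4 made up 65.5% ± 0.554 in WT and 65.6% ± 2.36 among Alb/MDA-9 libraries (SD of 3). The share of Sdc1 was 25.4% ± 0.148 and 25.8% ± 1.56, and that of Sdc2 7.68% ± 0.477 and 7.71% ± 0.664. Sdc3 held 1.44% ± 0.0717 in WT and 0.930% ± 0.221 in Alb/MDA-9. Per kilobase of mean coding transcript length the WT and Alb/MDA-9 shares were 53.4% and 53.7% for Sdc4, 37.4% and 38.1% for Sdc1, 6.04% and 6.09% for Sdc2, and 3.25% and 2.10% for Sdc3. The sum itself, per kilobase of exon union, was 231, 262 and 256 CPM per kilobase in WT 1, 2 and 3 and 269, 258 and 247 in Alb/MDA-9 1, 2 and 3, with overlapping groups. With either length Sdc4 and Sdc1 made up most of the syndecan pool in both genotypes, and Sdc3 was its smallest part.

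**Figure D4:**
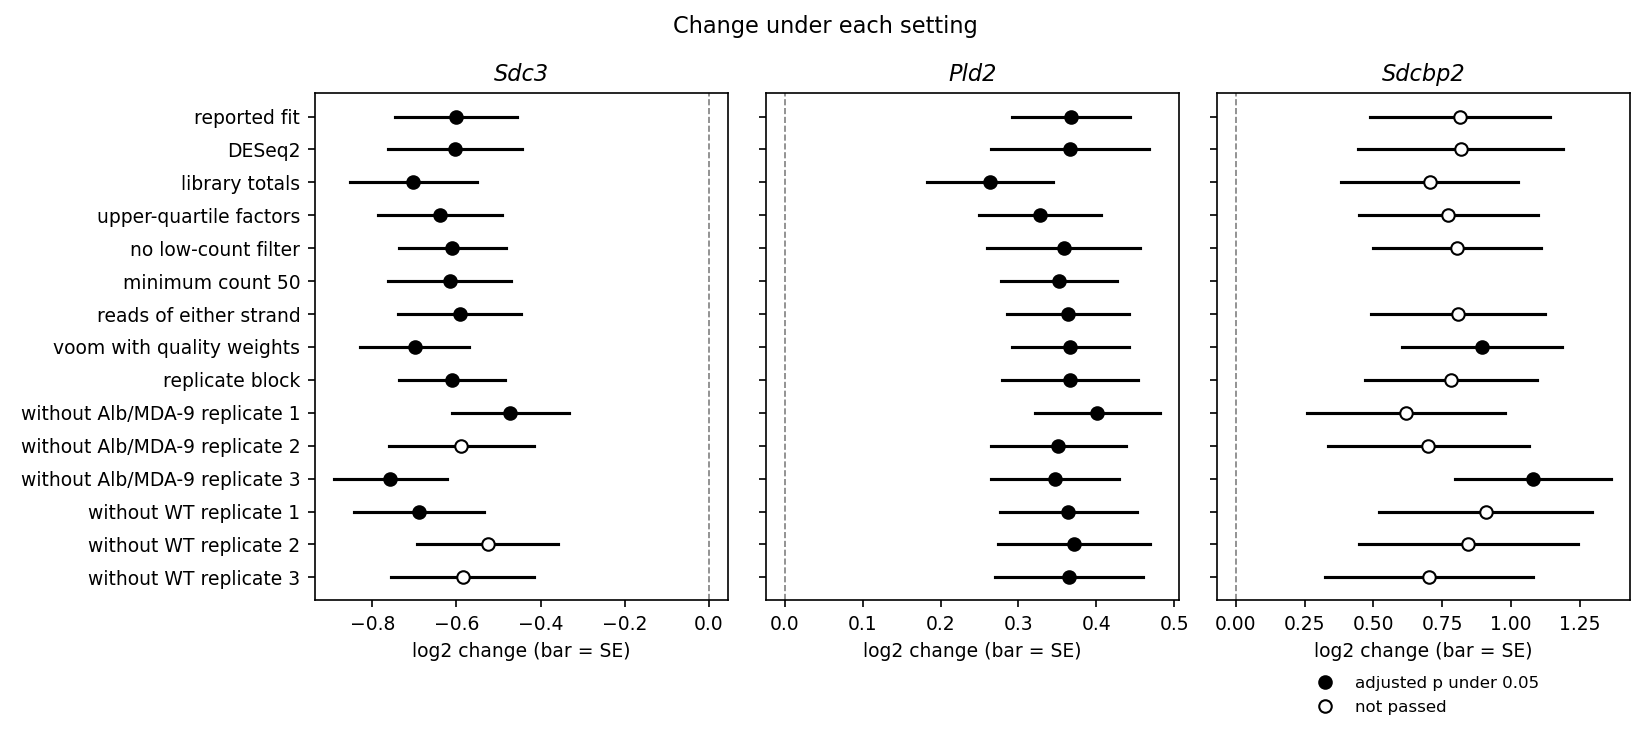
Log2 change of Sdc3, Pld2 and Sdcbp2 in the reported edgeR fit and under each alternative setting; bars are the SE and filled circles have an adjusted p under 0.05, and Sdcbp2 has no point at the stricter count filter, which removes it. Pld2 is filled in every row, Sdc3 is open without Alb/MDA-9 2, WT 2 or WT 3, and Sdcbp2 is filled with voom and without Alb/MDA-9 3.

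Lists of other genes of the pathway were described in the same fit, 107 genes in 6 lists of which 93 were tested. Of these 13 rose and 6 fell, together 20.4%, against 14.4% of all tested genes. Of the 19 called genes 6, Chmp4c, Nectin1, Pld1, Hspg2, Cd44 and Nrp1, passed whichever single library was left out.

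Among regulators of ARF6 and phospholipase D, 3 of 27 tested genes rose and 0 fell, 11.1% against 14.4% of all tested genes. The list had a median of 0.020 on the log2 scale. Pld1, the other phospholipase D with the same catalytic activity, had 13.2, 12.6 and 15.1 CPM in WT and 19.3, 23.4 and 23.96 CPM in Alb/MDA-9. It rose 1.63-fold (log2 change 0.71, SE 0.12, edgeR adjusted p = 0.00221). Both phospholipase D genes were higher in every Alb/MDA-9 library. Of all tested genes 33.6% did not overlap between the groups, in either direction. Asap2, an ARF GTPase-activating protein gene, rose from 53.5 ± 6.01 to 72.2 ± 6.78 CPM, and Pip5k1c, which makes the phosphoinositide that phospholipase D needs, from 66.3 ± 5.87 to 86.9 ± 12.5 CPM (SD of 3 libraries). The Asap2 call ended without Alb/MDA-9 2 (adjusted p = 0.0545), and that of Pip5k1c without WT 1 (0.0657) or WT 2 (0.121) and with library totals (0.0962). The cytohesin genes Cyth1, Cyth2 and Cyth3, whose proteins load ARF6 with GTP, had log2 changes of 0.12, 0.11 and -0.11 and did not pass.

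In the exosome route of syntenin and ALIX, 1 of 16 tested genes rose and 2 fell, together 18.8%, against 14.4% of all tested genes. The list had a median of 0.062 on the log2 scale. Chmp4c, an ESCRT-III subunit of the family that ALIX binds, rose from 66.4 ± 2.69 to 95.6 ± 4.64 CPM (SD of 3 libraries). Its log2 change was 0.53 (SE 0.072, edgeR adjusted p = 0.000424). The paralogue Chmp4b had 211 and 224 CPM and did not pass. The endosomal sorting gene Stam fell from 52.7 ± 1.77 to 39.7 ± 6.81 CPM, and Hpse, which encodes heparanase, the enzyme that trims heparan sulfate chains, had 45, 21 and 28 reads in WT and 7, 8 and 13 reads in Alb/MDA-9 and fell by 1.61 on the log2 scale. The Stam call ended without Alb/MDA-9 2, WT 1, WT 2 or WT 3 (adjusted p = 0.0932, 0.0858, 0.0773 and 0.0528), and that of Hpse without Alb/MDA-9 1, Alb/MDA-9 2, WT 1 or WT 3 (0.0769, 0.0913, 0.124 and 0.0700). The tetraspanin genes Cd9 and Cd81 had log2 changes of -0.19 and 0.16 and did not pass.

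Of 10 tested genes for other proteins reported to bind syntenin 3 rose and 0 fell, 30% against 14.4% of all tested genes. The list had a median of 0.13 on the log2 scale. Nectin1, an adhesion receptor gene, rose from 43.1 ± 4.72 to 63.5 ± 9.51 CPM, Efnb1, which encodes the transmembrane ligand ephrin-B1, from 18.4 ± 1.04 to 25.2 ± 2.97 CPM, and the transcription factor gene Sox4 from 60.1 ± 8.60 to 80.3 ± 6.21 CPM (SD of 3 libraries). The Efnb1 call ended without WT 3 (adjusted p = 0.0692) and with library totals (0.0598), and the Sox4 call without WT 1 (0.0646) or WT 2 (0.0850) and with library totals (0.0566). Tgfa, whose precursor syntenin carries to the cell surface, had 55.7 and 54.7 CPM and did not pass.

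Genes that build or remodel heparan sulfate, the sugar chain of the syndecans, gave 2 rises and 2 falls among 17 tested. Together these were 23.5%, against 14.4% of all tested genes. The list had a median of 0.00080 on the log2 scale. Ext1, a subunit of the chain polymerase, rose from 155 ± 9.46 to 189 ± 11.6 CPM, and B4galt7, an enzyme of the linker between chain and protein, from 21.9 ± 1.502 to 28.05 ± 2.13 CPM (SD of 3 libraries). Hs3st3b1, a sulfotransferase gene, fell from 39.4 ± 2.80 to 32.5 ± 0.791 CPM, and Hpse, already named, is the other fall. The Ext1 call ended without Alb/MDA-9 2, WT 2 or WT 3 (adjusted p = 0.0741, 0.119 and 0.109), and with library totals (0.155) or upper-quartile factors (0.0573). Those of B4galt7 and Hs3st3b1 ended when any library but Alb/MDA-9 3 was left out, at adjusted p of up to 0.117 and 0.187, and also with library totals for B4galt7 (0.0996) and with DESeq2 for Hs3st3b1 (0.0589). Among other proteoglycans and co-receptors 2 of 8 rose and 1 fell, together 37.5%, against 14.4% of all tested genes. The list had a median of 0.10 on the log2 scale.

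The hyaluronan receptor gene Cd44 rose from 80.1 ± 1.69 to 118 ± 11.9 CPM (SD of 3 libraries), by 0.55 on the log2 scale (SE 0.081; edgeR adjusted p = 0.000686), and Nrp1, a co-receptor gene for VEGF and semaphorins, from 62.3 ± 5.47 to 88.99 ± 7.10 CPM. Hspg2, which encodes perlecan, the heparan sulfate proteoglycan of basement membranes, fell from 32.7 ± 1.38 to 19.9 ± 4.17 CPM (log2 change -0.72, SE 0.13, edgeR adjusted p = 0.00255). In the same libraries 4 of 10 endothelial and 5 of 11 stellate cell markers fell, against 7.09% of all tested genes. The part of these cells in the Hspg2 result was not tested.

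Of 16 tested genes for syndecan sheddases and binding proteins of the syndecan tail 2 rose and 2 fell. Together they were 25%, against 14.4% of all tested genes. The list had a median of 0.081 on the log2 scale. The actin cross-linker gene Actn1, whose product binds the syndecan-4 tail, rose from 465 ± 16.9 to 579 ± 28.5 CPM, and Cttn, which encodes cortactin, from 362 ± 42.2 to 440 ± 15.3 CPM (SD of 3 libraries). Ezr, which encodes the membrane-to-actin linker ezrin, fell from 58.6 ± 2.84 to 43.0 ± 8.32 CPM, and Tiam1, a Rac exchange factor gene whose product binds syndecans, went from 17, 18 and 12 reads in WT to 5, 5 and 1 reads in Alb/MDA-9. The Tiam1 call ended without any single one of the 6 libraries (adjusted p of 0.0527 to 0.117) and with DESeq2 (0.0569), and that of Actn1 without Alb/MDA-9 2 (0.0521) or WT 3 (0.0601) and with library totals (0.0701). The Cttn call ended without Alb/MDA-9 1, Alb/MDA-9 2, WT 1 or WT 2 (0.0583, 0.138, 0.146 and 0.124) and with library totals (0.183), upper-quartile factors (0.0786) or a minimum count of 50 (0.0582). The Ezr call ended without Alb/MDA-9 1, Alb/MDA-9 2, WT 2 or WT 3 (0.0582, 0.0912, 0.0948 and 0.0602). The sheddase genes Adam10 and Adam17 had log2 changes of 0.26 and 0.17 and did not pass (edgeR adjusted p = 0.0950 and 0.234).

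**Figure D5:**
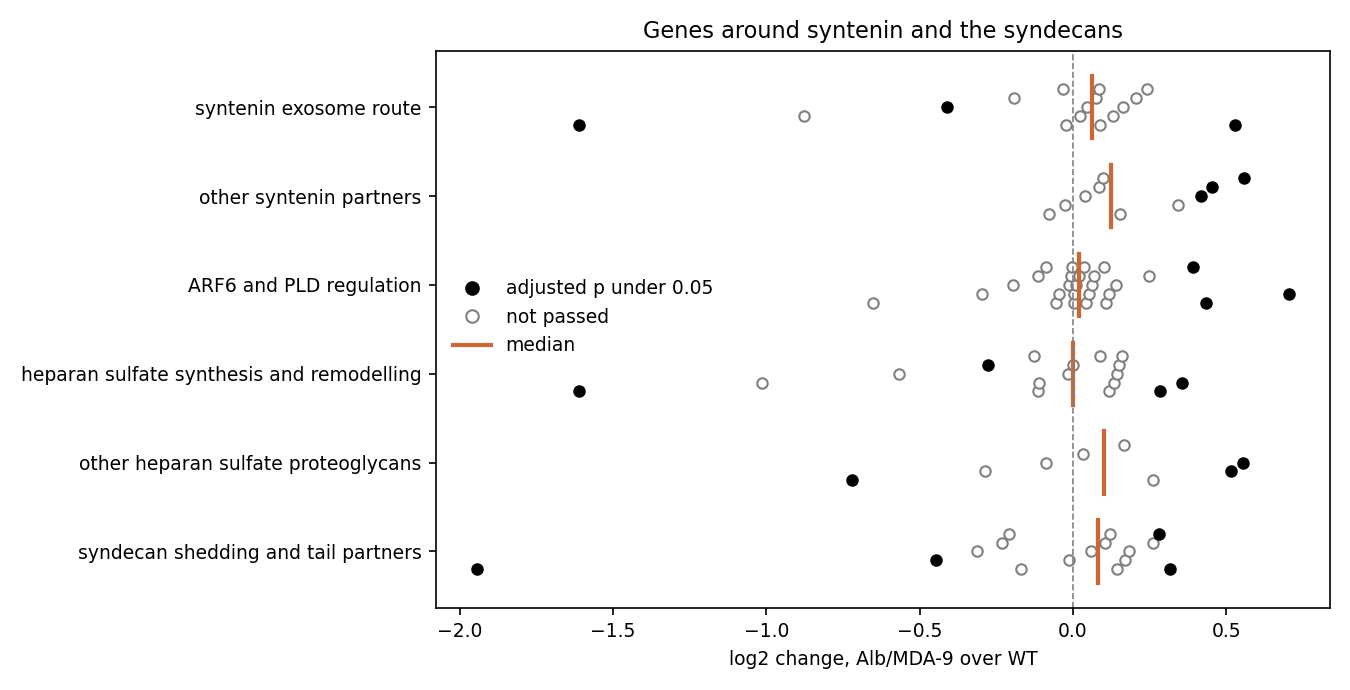
Log2 change, Alb/MDA-9 over WT, of each tested gene in the 6 pathway lists; filled circles have an edgeR adjusted p under 0.05, open circles do not, and orange bars are list medians. The medians lie between 0.00080 and 0.13, with filled circles on both sides of 0 in 4 lists and above 0 only among the other syntenin partners and the ARF6 and PLD regulators.

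By Pearson correlation of log2 CPM over the 6 libraries, the genes most like Sdcbp were Gm12266 (r = 0.975), Alms1 (r = 0.971) and Isca2 (r = 0.971), and 12 of 13295 genes exceeded 0.95. Those most like Sdc3 were the endothelial gene Cdh5 (r = 0.987), Cdan1 (r = 0.984) and Ezr (r = 0.984), and 86 genes exceeded 0.95. These values describe 6 libraries that share 2 genotypes and their library composition.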

How the data were processed

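The deposited tables hold raw read counts per gene, not normalised; per the submitters' processing notes, edgeR 3.18.1, STAR 2.7.9a, Trim Galore 0.6.6 and FastQC 0.11.2 were used with builds mm10 and GRCm38. Not given in the sources used here: the annotation release and the options. The 4 summary rows, 34.2% to 37.5% of reads, were left out.

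From these counts the reverse-strand column was analysed, which held a median of 97.1% of the stranded reads. Symbols and lengths came from GENCODE M21 (55227 of 55487 identifiers matched). Genes were filtered with filterByExpr at a minimum count of 10, scaled by TMM and tested with edgeR 4.0.16 (R 4.3.3, 4 residual degrees of freedom, no covariates), and 3 reads equalled 0.152 to 0.181 CPM. Alternatives were DESeq2 1.42.0, limma 3.58.1 voom, other scalings, filters and strand, the replicate block and leaving out each library. The fits were tested on simulated data.

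Named were all members, up to 4 called genes of each list with the largest change, and 3 most similar genes. Of each marker list the first and the 2 most abundant other markers were named. Msln, Krt7, Cps1 and the pathway genes named as not passing were chosen after their values were seen. Members and lists were chosen with earlier results of these data known.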

Additional observations from a re-analysis of the deposited data

Results flagged for a closer look

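Reads on the strand opposite to Sdc1, which the comparison did not use, numbered 24 over the Alb/MDA-9 libraries and 12 over the WT libraries, with 7, 9 and 8 against 4, 2 and 6. Every Alb/MDA-9 library was above every WT library, with 7 reads in Alb/MDA-9 1 against 6 in WT 3 as the nearest. How often genes separate in this way on the opposite strand was not counted over all genes. Over all 6 libraries these reads equalled 0.135% of the Sdc1 reads. No gene is annotated across its exons on that strand, and the difference was not tested. Over all genes the reverse-strand share was also lower in each Alb/MDA-9 library, at 96.91% to 97.05% against 97.15% to 97.17% in WT. Pld2 went the other way, with 0, 0 and 0 opposite-strand reads in Alb/MDA-9 against 1, 2 and 1 in WT, and the other members overlapped.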

How the results depend on the processing

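Over 14 alternatives Pld2 stayed called and Sdc3 kept its direction (log2 change -0.76 to -0.47). Leaving out each library in turn, members higher numbered 1 to 2, members lower 0 to 1, all genes higher 503 to 1178 and lower 515 to 1208, and pathway genes higher 8 to 17 and lower 1 to 6. With library totals 525 genes were higher and 1622 lower, against 977 and 943, and 6 pathway genes were higher, against 13. Voom called 2 members as higher. Mean coding transcript length changed the WT rank of 5 members. Same-numbered libraries did not deviate together (r = -0.041, -0.000087 and -0.062 for replicates 1, 2 and 3); the replicate block called 775 genes higher and 826 lower, with 1 member higher and 1 lower as without the block, and 11 pathway genes higher and 4 lower. The block ended the calls of B4galt7, Ext1, Hs3st3b1 and Tiam1 (edgeR adjusted p = 0.0611, 0.0524, 0.0749 and 0.0514). With it 0 genes of the heparan sulfate synthesis and remodelling list were higher and 1, Hpse, was lower. The cause of these shifts was not tested. Sdcbp2 had 22 to 63 reads per library, with a counting error of 12.6% to 21.3% of the count, while Hpse had 7 to 45 reads and Tiam1 1 to 18.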
